A study of Mus musculus with 20 samples.

Results

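The genes described are 35 targets of the transcription factor p53 that lie outside the BCL-2 family, in mouse thymocytes, which are T cells still maturing in the thymus, and in thymic tumours. Members were taken by gene symbol, from array probe sets that name a single gene. Of the 35 genes, 34 have such probe sets and 32 were bright enough to test, out of 19607 genes on the array. Fdxr, a mitochondrial reductase, has no probe set used here. Eda2r, a death receptor, lay between the 8.2 and 19.6 percentile of all genes on the 20 arrays, and Gdf15, a secreted stress cytokine, between the 33 and 43.2 percentile, and neither was tested. The other 32 genes carry the results below, measured by 308 probe sets over the 34 genes, with 2 to 30 for each gene and a median of 8.

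All mice were C57BL/6, and the series asks how expression differs without Gfi1, a zinc finger repressor of transcription, in irradiated thymocytes and in tumours. Thymocytes came from wild-type (WT) mice and from mice labelled Gfi1 KO, untreated (2 WT and 2 KO arrays) or irradiated (3 WT and 3 KO arrays). How much radiation was given, how long before sampling, and which allele the thymocyte KO label stands for are not stated in the sources at hand. All tumour mice carried floxed Gfi1 and received the mutagen ENU. The WT mice had no Cre, and the KO mice had Mx1-Cre, which interferon turns on in many cell types. Mice of both genotypes received pIpC, which induces interferon, once ultrasound showed a growing mediastinal tumour, and cells were taken about 2 to 3 weeks later. The ENU tumours (3 WT and 3 KO arrays) arose without a further transgene, and the Notch tumours (2 WT and 2 KO arrays) in mice that also carried a Notch transgene. The labels do not say whether arrays of 1 group stem from separate animals, and the p-values then measure only the spread between these samples, which may be technical.

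p53 is held at a low level in resting cells by the ubiquitin ligase MDM2. Damage to DNA activates the kinases ATM and ATR, p53 escapes MDM2 and binds its sites in the genome, and its targets halt the cell cycle, repair DNA, adjust metabolism or start cell death. Several targets, among them Mdm2 itself and the phosphatase gene Ppm1d, feed back to switch p53 off. Thymocytes, and above all the CD4 CD8 double-positive cells that fill the thymus, are known to die readily after irradiation in a p53-dependent manner. p53 binds 2 copies of a decamer, a stretch of 10 bases, found close to the start of some targets and within introns or farther away in others.

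The promoters of Cdkn1a and of 3 feedback genes show matches to this decamer and how far they lie from an annotated start of transcription. The Cdkn1a window holds 2 matches, and those of Mdm2, Ccng1 and Ppm1d hold 1 each, not the pair described above. These 4 were chosen from the members that rose after irradiation of WT thymocytes and hold a match. The sequences are from RefSeq, build GRCm38.p6, written 5′ to 3′ along the gene's strand, and capitals mark each match to the p53 decamer. They come from chr17:29090891-29090952 (plus strand) for Cdkn1a, chr10:117710900-117710959 (minus strand) for Mdm2, chr11:40755427-40755486 (minus strand) for Ccng1 and chr11:85311107-85311166 (plus strand) for Ppm1d. Each window lies upstream of the gene's annotated start sites.
Cdkn1a: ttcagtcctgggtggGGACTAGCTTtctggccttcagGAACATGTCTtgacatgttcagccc
Mdm2: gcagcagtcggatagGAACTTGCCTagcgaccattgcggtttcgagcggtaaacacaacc
Ccng1: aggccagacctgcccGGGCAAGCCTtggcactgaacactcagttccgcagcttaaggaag
Ppm1d: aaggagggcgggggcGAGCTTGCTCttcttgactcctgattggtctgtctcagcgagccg

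Distances are counted from the annotated start whose promoter holds the match. A gene can have other start sites farther downstream, which need not be the less used ones. The 2 decamers of Cdkn1a begin at -73 and -51. The single decamers of Mdm2, Ccng1 and Ppm1d begin at -186, -185 and -132. The p53 decamer was searched as its degenerate consensus, which reads the same on both strands, from 250 bases before to 50 bases after each start. Only exact matches were taken. The 10 bases directly after the second Cdkn1a match depart from the consensus at their first base and are not marked. Of the members, 28 are in the RefSeq promoter table, and 11 of them (39.3%) hold at least 1 decamer, against 2582 of all 27025 genes of the table (9.6%). Among members that rose after irradiation of WT thymocytes the share was 8 of 13 (61.5%), and among the other members 3 of 15 (20%). A full site, which is 2 decamers with a spacer of at most 13 bases, was in the window of 1 member, Cdkn1a, and of 20 of all genes (0.07%). A match describes these letters and does not show that p53 binds there.

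The libraries were checked before the members were compared. Between untreated KO and WT thymocytes the 8 Gfi1 probe sets differed by -6.31 to 1.20 (log2 differences). The lowest were at -6.31, -2.84 and -2.24, and other sets were higher in KO. The set at -6.31 was 1.23 higher in irradiated KO than in irradiated WT thymocytes. There, 5 other Gfi1 sets differed by -1.35 to -2.44, and the remaining sets by 0.98 and 1.37. The 2 kinds of KO thymocyte thus show different patterns at Gfi1, and the KO irradiation comparison sets them against each other. In KO Notch tumours 1 Gfi1 set differed by -4.52, another by -1.67 and the rest by -0.52 to 0.31. In tumours labelled KO after ENU all 8 sets lay between -0.65 and 0.11, so no loss of Gfi1 RNA was seen there. The mean of 7 T-lineage genes was between 12.22 and 12.81 on 19 of the 20 arrays. It was 10.26 on KO Notch tumour 2, which also had a mean of 12.79 for 7 B-cell genes, against 7.24 to 9.39 on the other 19 arrays. That tumour goes against its thymic label, and values without it are given for the tumour comparisons below. ENU tumour 1 labelled KO had the highest mean of 11 macrophage and dendritic genes of all 20 arrays, 11.03, against 9.07 to 9.40 in the other 5 ENU tumours, and its mean of 10 double-positive genes, 9.53, was the lowest of the ENU tumours. In bulk samples such as these, fewer cells of a type and less RNA per cell cannot be told apart.

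Values are log2 signals of a gene on each array, and differences are log2 differences ± standard error (SE) from limma. A gene was called where its Benjamini-Hochberg adjusted p over all genes tested was under 0.05. A level on this array depends on the probe sets, so levels are compared between arrays and not between genes.

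In WT thymocytes 16 of the 32 members rose after irradiation and 4 fell. Over all 12747 genes tested, 13.0% were higher and 21.7% lower in the same comparison. The median difference of the members was 0.30, against -0.02 over all genes. The strongest rises were in Cdkn1a, which encodes the cyclin-dependent kinase inhibitor p21, in Phlda3, an inhibitor of AKT, in Sesn2, a stress sensor that restrains mTORC1, and in the polo-like kinase gene Plk2. Plk2, and Perp, which also rose, were dim untreated and were tested only because their irradiated arrays were bright enough. In KO thymocytes 20 members rose and 3 fell, where 15.1% of all genes were higher and 23.7% lower, and the member median was 0.51. The 2 responses share no arrays, though they share 1 estimate of the spread of each gene. Of the 32 members, 16 rose in both genotypes, 2 fell in both and none was called in opposite directions. Of all 12747 genes, 945 rose in both, 2016 fell in both and 34 were called in opposite directions. Opposite calls were thus rare among all genes too. The sign was the same in both genotypes for 29 members (90.6%), against 10308 of all genes (80.9%). With all 20 arrays in 1 fit, 8 members were called in WT and 9 in KO, all of them higher. The share of all genes called in that fit is not given here, so a loss particular to the members cannot be read from this. The calls lost there included Plk2 (adjusted p 0.102 in WT and 0.105 in KO), Tnfrsf10b (0.266 and 0.116), Zmat3 (0.374 and 0.339) and, in KO, Cdkn1a (0.121), with the same differences.

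**Figure D1:**
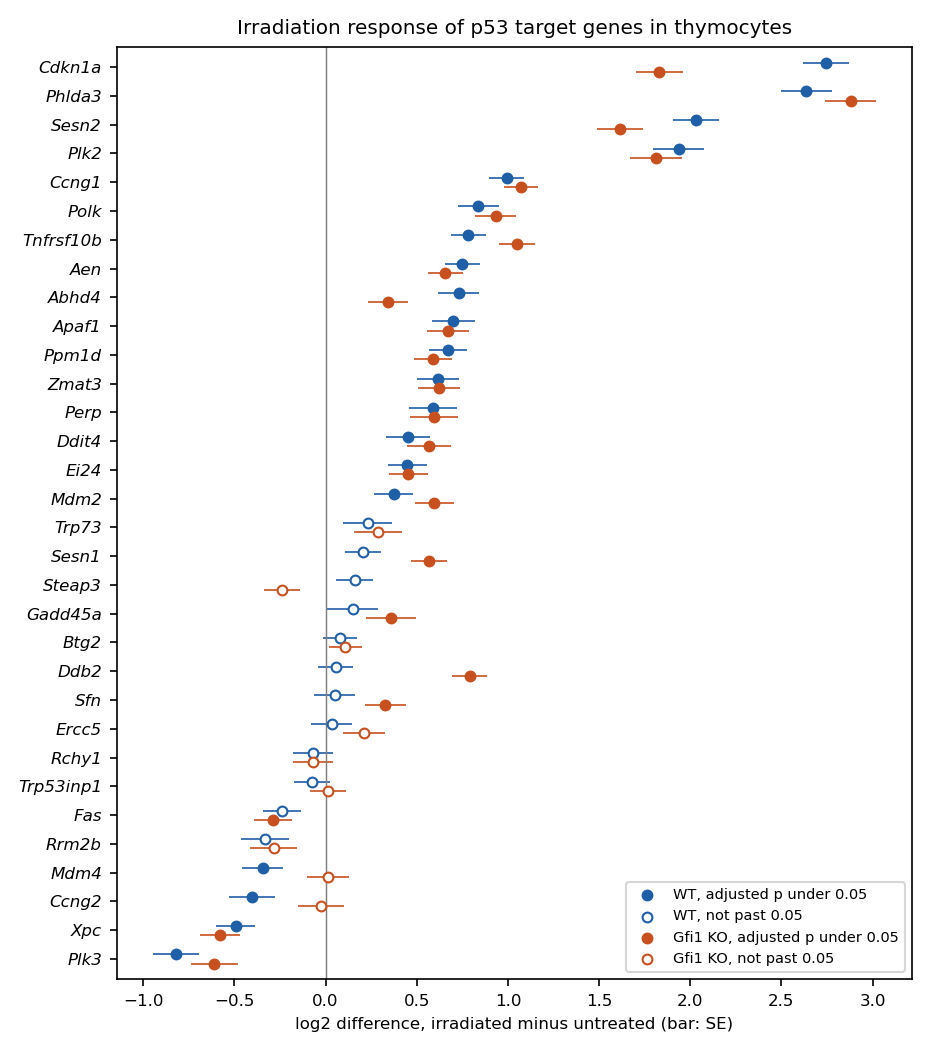
Log2 difference, irradiated minus untreated, with its standard error, for the 32 tested members in WT (blue) and KO (orange) thymocytes. Filled points have an adjusted p under 0.05. Phlda3, Cdkn1a, Plk2 and Sesn2 lie farthest to the right in both genotypes, and Plk3 and Xpc lie to the left of 0 in both.

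Among the genes that halt the cell cycle, Cdkn1a stood at 8.12 and 8.30 in untreated WT thymocytes and at 10.84, 11.01 and 11.01 in irradiated ones. The corresponding KO values were 8.77 and 8.51, then 10.61, 10.23 and 10.59. Every irradiated array lay above every untreated one by more than 1 log2 unit. The rise was 2.74 ± 0.13 in WT (adjusted p 5.39e-10, a 6.70-fold change if the log base is 2) and 1.83 ± 0.13 in KO (adjusted p 2.91e-08, 3.56-fold). All 5 Cdkn1a probe sets were higher after irradiation, by 2.39 to 3.49 in WT and by 1.33 to 2.55 in KO.

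Plk2 and Plk3 encode polo-like kinases that respond to stress, and they moved in opposite directions. Plk2 was at 6.61 and 6.52 in untreated WT and at 8.30, 8.88 and 8.32 in irradiated WT thymocytes, and at 6.98 and 6.98, then 8.87, 8.76 and 8.75, in KO. Its rise was 1.94 ± 0.14 in WT (adjusted p 4.5e-08) and 1.81 ± 0.14 in KO (adjusted p 9.88e-08). Plk2 was dim before irradiation, below the untested Gdf15 on each untreated array, and its lowest percentile on any array was 12.1. Plk2 would not have been tested on its untreated arrays alone, and the size of its rise rests on this dim baseline. Plk3 was at 8.89 and 8.73 in untreated WT, and at 7.86, 8.23 and 7.88 after irradiation. In KO it was at 8.93 and 8.86, then at 8.27, 8.12 and 8.47. Plk3 thus fell in both, by 0.82 in WT (adjusted p 1.33e-04) and by 0.61 in KO (adjusted p 0.00135), with no overlap between irradiated and untreated arrays. All 14 Plk2 probe sets were above 0 in both genotypes, and 1 of 15 Plk3 sets was above 0 in WT and 0 of 15 in KO.

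The other cell-cycle genes moved little. Ccng2, a cyclin-like gene that restrains division, fell by 0.40 in WT (adjusted p 0.0204) and differed by -0.02 in KO (adjusted p 0.887). That call was lost without WT irradiated array 3 or WT untreated array 1. Gadd45a, a stress-response gene, differed by 0.15 in WT (adjusted p 0.417) and 0.36 in KO (adjusted p 0.0488), where its untreated and irradiated arrays overlapped. Sfn, which encodes the 14-3-3 sigma protein that holds cells at the G2 checkpoint, differed by 0.05 in WT and 0.33 in KO (adjusted p 0.0293). The KO calls for Gadd45a and Sfn were each lost without any 1 of 4 arrays, which included both untreated KO arrays in each case. Btg2, an anti-proliferative gene, was not called in WT (0.08) or KO (0.11).

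Of the 6 feedback genes 3 rose in each genotype, Ccng1, Ppm1d and Mdm2, and 1 fell in WT, Mdm4. Ccng1, which encodes cyclin G1 and recruits a phosphatase to MDM2, had untreated values of 12.20 and 12.23 in WT and 12.23 and 12.31 in KO. After irradiation it was at 13.13, 13.26 and 13.24 in WT and at 13.30, 13.42 and 13.31 in KO. It rose by 0.99 ± 0.10 in WT (adjusted p 9.61e-07) and 1.07 ± 0.10 in KO (adjusted p 3.76e-07). Ppm1d, which encodes the WIP1 phosphatase, rose from 11.38 and 11.43 to 11.92, 12.20 and 12.10 in WT and from 11.29 and 11.36 to 11.86, 12.01 and 11.88 in KO. Its differences were 0.67 ± 0.11 (adjusted p 1.37e-04) and 0.59 ± 0.11 (adjusted p 3.67e-04).

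Mdm2 and its relative Mdm4, which blocks the activation domain of p53, did not move together. Mdm2 was at 11.19 and 11.23 in untreated WT and 11.44, 11.68 and 11.62 in irradiated WT, and at 10.92 and 11.08, then 11.54, 11.70 and 11.55, in KO. It rose by 0.37 ± 0.11 in WT (adjusted p 0.0122, lost without WT untreated array 1 or 2) and by 0.60 ± 0.11 in KO (adjusted p 3.41e-04). Mdm4 was at 11.14 and 11.12 in untreated WT, and at 10.75, 10.70 and 10.91 after irradiation. It fell by 0.34 in WT (adjusted p 0.0281), a call lost without WT irradiated array 1 or 2 or WT untreated array 1 or 2. In KO its values were 10.66 and 10.81, then 10.69, 10.95 and 10.60, so the arrays overlapped and the difference was 0.01. Rchy1, which encodes the ligase Pirh2, and Trp73, a p53 relative, were not called in either genotype (-0.07 and 0.23 in WT).

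Of the DNA repair genes, Polk, a polymerase that copies past damaged bases, rose in both genotypes. It was at 9.29 and 9.18 in untreated and 9.92, 10.15 and 10.16 in irradiated WT, and at 9.06 and 9.15, then 9.96, 10.21 and 9.93, in KO. All 22 Polk probe sets were above 0, and the rises were 0.84 ± 0.11 (adjusted p 3.25e-05) and 0.93 ± 0.11 (adjusted p 9.28e-06). Xpc, which recognises distorted DNA in nucleotide excision repair, fell by 0.49 in WT (adjusted p 0.00217) and by 0.58 in KO (adjusted p 5.02e-04). Its untreated arrays lay between 9.54 and 9.62 and its irradiated arrays between 8.88 and 9.20. Rrm2b, a ribonucleotide reductase subunit, was not called (-0.33 in WT, adjusted p 0.0572, and -0.28 in KO), nor was the repair nuclease gene Ercc5 (0.03 and 0.21). Ddb2, the partner of Xpc in damage recognition, is described with the genotype comparisons.

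Most of the genes of cell death rose: 8 of the 10 tested were higher in WT and 8 in KO. Phlda3 stood at 8.13 and 8.15 in untreated WT and at 10.85, 10.70 and 10.78 in irradiated WT, and at 8.12 and 8.05, then 11.01, 10.63 and 11.27, in KO. Its differences of 2.64 ± 0.14 (adjusted p 1.51e-09) and 2.88 ± 0.14 (adjusted p 4.33e-10) rest on only 2 probe sets. Aen, a nuclease that takes part in apoptosis, went from 9.08 and 9.19 to 9.82, 9.89 and 9.95 in WT and from 9.20 and 9.27 to 9.91, 9.85 and 9.90 in KO. It rose by 0.75 ± 0.10 (adjusted p 1.73e-05) and 0.66 ± 0.10 (adjusted p 5.25e-05). Apaf1, the core of the apoptosome, went from 9.92 and 9.87 to 10.52, 10.56 and 10.70 in WT and from 9.95 and 10.08 to 10.64, 10.92 and 10.51 in KO. Its rises were 0.70 ± 0.12 (adjusted p 2.54e-04) and 0.67 ± 0.12 (adjusted p 3.11e-04).

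The death receptor genes Fas and Tnfrsf10b differed in direction. Tnfrsf10b, the mouse receptor for TRAIL, was at 8.25 and 8.19 in untreated WT and at 8.92, 9.03 and 9.07 in irradiated WT, and at 8.13 and 7.98, then 9.12, 9.05 and 9.16, in KO. It rose by 0.78 ± 0.10 (adjusted p 1.55e-05) and 1.05 ± 0.10 (adjusted p 6.03e-07). Fas went from 11.00 and 10.89 to 10.72, 10.70 and 10.70 in WT, a difference of -0.24 ± 0.10 that missed the threshold (adjusted p 0.083). In KO it went from 10.76 and 10.88 to 10.55, 10.66 and 10.39 and was called lower by 0.29 (-0.29 ± 0.10, adjusted p 0.0361). That call was lost without KO irradiated array 1 or 3 or KO untreated array 1 or 2, and under 5 of 8 other ways of processing or fitting, among them quantile normalization, no filter and the mean of probe sets. In neither genotype did Fas rise, although every irradiated array lay below every untreated array of its genotype.

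Of the remaining death genes, Perp, a membrane protein of the apoptotic response, rose by 0.59 in WT and 0.60 in KO, and Ei24, an endoplasmic reticulum protein, by 0.45 and 0.45. Perp was at 7.45 and 7.49 in untreated WT and at 7.74 and 7.52 in untreated KO thymocytes. Its lowest percentile on any array was 28.2, and like Plk2 it would not have been tested on its untreated arrays alone. Zmat3, an RNA-binding zinc finger protein, rose by 0.62 in both. Trp53inp1, a cofactor of p53 in the nucleus, differed by -0.08 in WT (adjusted p 0.569) and 0.01 in KO (adjusted p 0.913). It was among the brightest members, between the 97.5 and 99.7 percentile of all genes on every array.

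Among the genes of stress and metabolism the sestrins differed. Sesn2 was at 8.02 and 7.68 in untreated WT and at 9.67, 10.08 and 9.90 in irradiated WT, and at 8.29 and 8.34, then 9.91, 9.84 and 10.04, in KO. It rose by 2.03 ± 0.13 (adjusted p 7.98e-09, 4.09-fold) and 1.62 ± 0.13 (adjusted p 1.25e-07). Sesn1, its relative, differed by 0.20 ± 0.10 in WT (adjusted p 0.117) and rose by 0.57 ± 0.10 in KO (adjusted p 2.94e-04). Ddit4, an inhibitor of mTORC1 also called REDD1, rose by 0.45 in WT (adjusted p 0.00832, lost without WT untreated array 1 or 2) and by 0.57 in KO. Steap3, a metal reductase, was not called (0.16 in WT and -0.24 in KO).

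Cell-type markers moved in the same comparisons. After irradiation of WT thymocytes 6 of 10 double-positive markers were lower, with group means of 12.30 untreated and 11.98 irradiated. Lower too were 9 of 10 granulocyte markers (9.31 and 7.91), 7 of 8 tested macrophage and dendritic markers (8.88 and 7.83), 5 of 7 B-cell markers (8.91 and 8.13) and 5 of 6 tested NK and cytotoxic markers (8.72 and 7.83). In KO thymocytes 6 of 10 double-positive, 1 of 10 granulocyte, 7 of 8 macrophage and dendritic and 6 of 7 B-cell markers were lower. Lower there too were 4 of 6 NK and cytotoxic, 4 of 5 gamma delta and 4 of 7 erythroid and megakaryocyte markers. In WT 1 of 5 gamma delta and 1 of 7 erythroid and megakaryocyte markers were lower. Higher were 1 of 10 granulocyte markers in WT, and 2 of 10 granulocyte and 1 of 10 double-positive markers in KO. Double-negative, mature T and thymic stroma markers had calls in both directions in each genotype. The part of these shifts in the members' values was not tested. The labels also number untreated arrays apart from irradiated ones, and the sources at hand do not say whether they were processed separately.

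The response to irradiation differed between the genotypes for 2 of the 32 members, Ddb2 and Cdkn1a. Over all genes 1.10% had a higher and 0.784% a lower response in KO. Untreated and irradiated KO thymocytes also differed in their Gfi1 probe sets, as given above. A genotype difference in response cannot be told apart from a difference between these 2 kinds of KO sample. Ddb2, which finds ultraviolet lesions for excision repair, was at 10.24 and 10.11 in untreated WT, and at 10.27, 10.27 and 10.15 in irradiated WT thymocytes. In KO it was at 9.65 and 9.54 untreated and at 10.33, 10.37 and 10.44 irradiated. The untreated KO arrays were thus the low ones, and the other 8 thymocyte arrays lay within 10.11 to 10.44. The response was 0.06 ± 0.10 in WT and 0.79 ± 0.10 in KO, and the difference of 0.73 ± 0.14 had an adjusted p of 0.00899. All 8 Ddb2 probe sets had a larger response in KO, by 0.46 to 1.37.

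For Cdkn1a the response was smaller in KO, by -0.91 ± 0.18 (adjusted p 0.0125), and in each of its 5 probe sets (-0.46 to -1.24). The untreated KO arrays, at 8.77 and 8.51, lay above the WT ones at 8.12 and 8.30, and the irradiated KO arrays, at 10.61, 10.23 and 10.59, lay below all 3 WT ones. Both differences rest on groups of 2 untreated arrays. The Cdkn1a call was lost without WT untreated array 1 or KO untreated array 1 (adjusted p 0.101 and 0.136), and the Ddb2 call without WT untreated array 1, KO untreated array 1 or KO untreated array 2 (0.0891, 0.0509 and 0.100). Both were also lost when all 20 arrays shared 1 fit. Next were Steap3 (-0.40, adjusted p 0.205), Sesn1 (0.36, 0.252), Abhd4 (-0.39, 0.283) and Sesn2 (-0.42, 0.333), none of which passed. Mdm2, Ccng1, Trp53inp1 and Fas differed by 0.22, 0.08, 0.09 and -0.05, and none passed.

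In the same comparison 9 of 10 granulocyte markers had a higher response in KO and 1 a lower one. Their mean was 9.31 in untreated WT, 6.79 in untreated KO, 7.91 in irradiated WT and 6.96 in irradiated KO. Macrophage and dendritic markers averaged 8.88, 9.36, 7.83 and 8.73 in the same order, and 3 of 8 tested had a higher response in KO. So had 1 of 6 mature T markers. A lower response was called for 3 of 7 erythroid and megakaryocyte, 1 of 5 gamma delta, 1 of 6 NK and cytotoxic and 1 of 8 double-negative markers. No double-positive, T-lineage, B-cell or thymic stroma marker was called. The part of these marker shifts in the Cdkn1a and Ddb2 values was not tested.

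**Figure D2:**
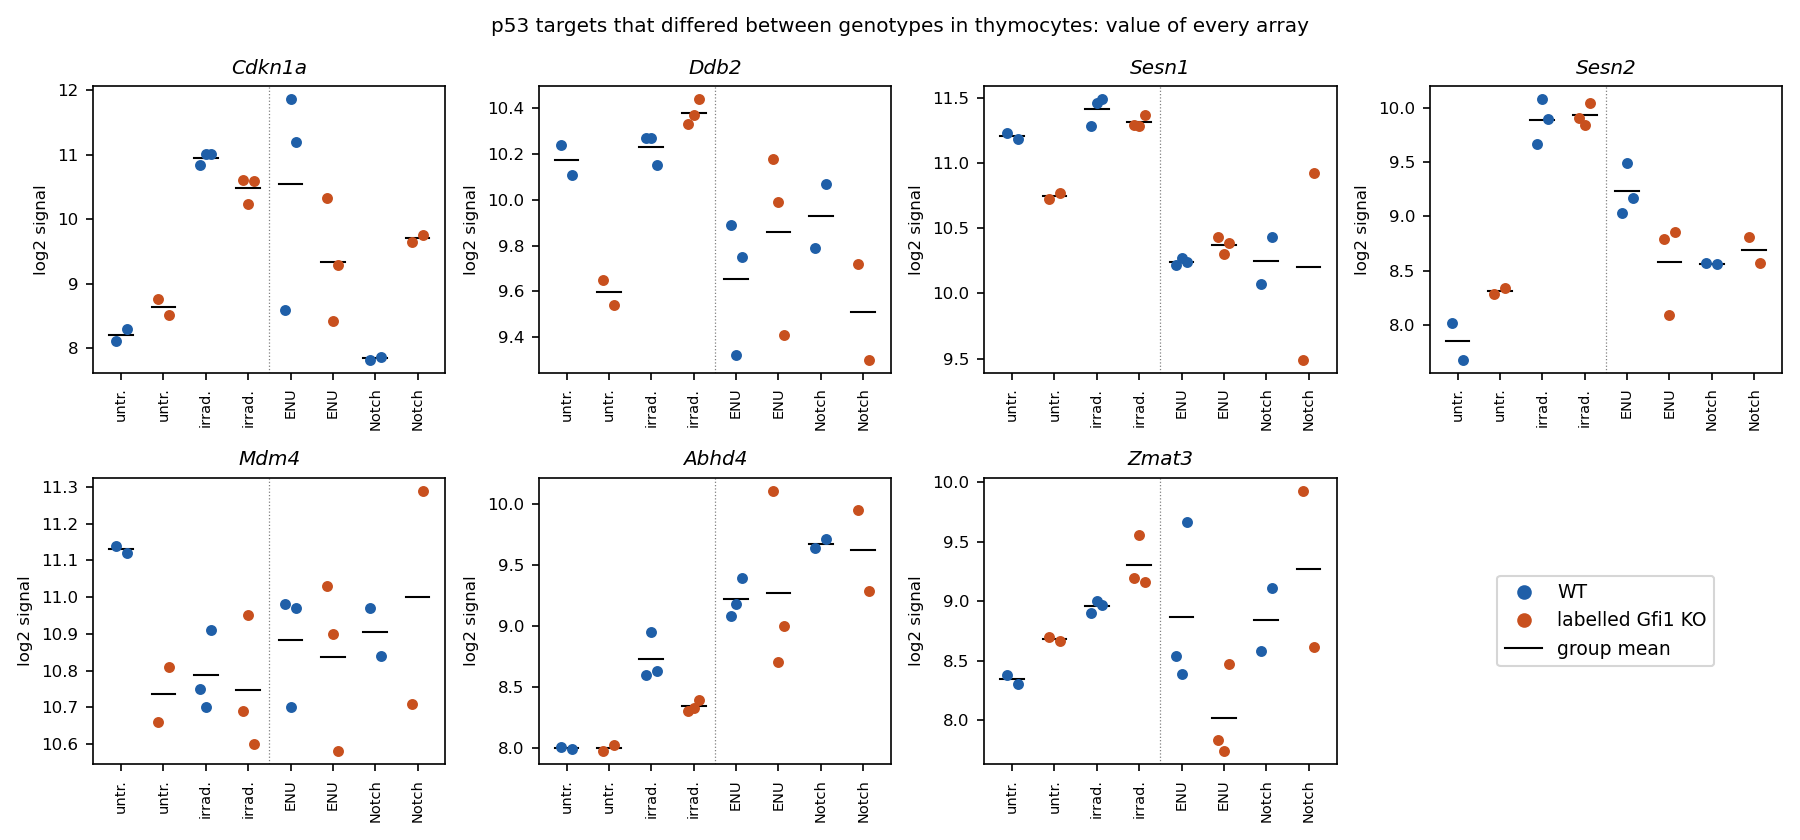
Log2 signal of 7 members on every array in the 8 groups, with a bar at each group mean. Ddb2 and Sesn1 are lowest among thymocytes on the 2 untreated KO arrays, and Cdkn1a is higher on all irradiated thymocyte arrays than on the untreated ones and spread over about 4 log2 units in the tumours.

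Between KO and WT untreated thymocytes, 1 member was higher and 3 were lower, against 6.79% and 5.49% of all genes. The shares of members are near those of all genes. Ddb2 fell by 0.58 (-0.58 ± 0.11, adjusted p 0.00124), and this call held without any 1 of the 4 untreated arrays. Sesn1 was at 11.23 and 11.18 in WT and 10.72 and 10.77 in KO, and was lower by 0.46 (-0.46 ± 0.11, adjusted p 0.00838). Mdm4, with the values given above, was lower (-0.40 ± 0.13, adjusted p 0.0477). Sesn2 was higher (0.46 ± 0.14, adjusted p 0.0383). Sesn1 and Mdm4 lost the call without any of the 4 arrays, with adjusted p of 0.0518 to 0.114 and 0.112 to 0.377, and Sesn2 without WT untreated array 2 or either KO array, with an adjusted p of up to 0.405. Without 1 array, 1 or 2 members were called in place of 4, and with all 20 arrays in 1 fit 0 were.

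Cdkn1a missed the threshold here (0.43 ± 0.14, adjusted p 0.0544), as did Zmat3 (0.35, 0.0918) and Plk2 (0.42, 0.0959). Mdm2 (-0.21), Ccng1 (0.06), Trp53inp1 (0.07) and Fas (-0.12) were not called. In the same comparison all 6 tested markers of mature T cells (median 0.98), 4 of 5 of gamma delta T cells, 5 of 8 of double-negative thymocytes, 4 of 6 of NK and cytotoxic cells, 4 of 7 of B cells, 4 of 7 of erythroid cells and megakaryocytes and 6 of 8 of macrophages and dendritic cells were higher. Lower were 9 of 10 granulocyte and 2 of 10 double-positive markers. The part of these shifts in the members' values was not tested.

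Between KO and WT irradiated thymocytes, 1 member was higher and 2 were lower, where 8.12% and 6.81% of all genes were. Cdkn1a was lower by 0.48 (-0.48 ± 0.11, adjusted p 0.00712). Abhd4, a lipase linked to the death of detached cells, was at 8.60, 8.95 and 8.63 in WT and at 8.30, 8.33 and 8.39 in KO, and was lower by 0.39 (-0.39 ± 0.10, adjusted p 0.0116). These irradiated arrays did not overlap between the genotypes, and both calls held without any 1 of the 6 arrays. The untreated Abhd4 values were 8.01 and 7.99 in WT and 7.97 and 8.02 in KO, and the gene rose after irradiation by 0.73 ± 0.11 in WT and 0.34 ± 0.11 in KO. The KO rise (adjusted p 0.0215) was lost without KO irradiated array 3 or either untreated KO array.

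Zmat3 was at 8.90, 9.0 and 8.97 in irradiated WT and at 9.20, 9.56 and 9.16 in irradiated KO thymocytes, and was higher by 0.35 ± 0.10 (adjusted p 0.0305). It was at 8.38 and 8.31 in untreated WT and 8.70 and 8.67 in untreated KO, so KO arrays lay above WT arrays in both conditions. The call was lost without any 1 of the 3 irradiated WT arrays or KO irradiated array 2 (adjusted p up to 0.124). Without that KO array 5 members were called, in place of 3, and with all 20 arrays in 1 fit 0 were. Mdm2 (0.01), Ccng1 (0.13), Trp53inp1 (0.16) and Fas (-0.17) were not called. Beside these calls all 6 tested markers of mature T cells (median 0.94), all 6 of NK and cytotoxic cells, 3 of 5 of gamma delta T cells, 3 of 8 of double-negative thymocytes, 4 of 7 of B cells, 4 of 7 of erythroid cells and megakaryocytes and 7 of 8 of macrophages and dendritic cells were higher, and 7 of 10 granulocyte, 2 of 10 double-positive, 1 of 8 double-negative and 1 of 7 B-cell markers were lower. Their part was not tested.

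Other genes of the p53 pathway were read from lists for comparison. The shares of all genes to set beside their counts are 13.0% higher and 21.7% lower in WT, and 15.1% and 23.7% in KO. Of 8 tested BCL-2 family targets, 3 rose and 3 fell in irradiated WT, and 3 rose and 4 fell in KO, with medians of -0.23 in both. The killers Bbc3, which encodes PUMA, Bcl2l11, which encodes BIM, and Pmaip1, which encodes NOXA, rose by 1.17, 0.90 and 0.61 in WT and by 1.42, 0.87 and 0.84 in KO, while Bid fell by 0.83 and 0.74. Of 20 kinases, cofactors and other regulators that act with p53, 5 rose and 3 fell in WT and 3 rose and 5 fell in KO. Brca1 (1.03 and 1.13), Ep300 (0.74 and 0.65) and Chek1 (0.60 and 0.69) were among those that rose in both. Trp53 itself is named by no probe set used here.

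A further 21 tested targets gave 4 higher and 6 lower in WT and 6 higher and 8 lower in KO, with medians of 0.06 and 0.04. The thiamine transporter gene Slc19a2 rose by 1.65 in WT and 1.85 in KO, and Gtse1, a microtubule-associated gene of G2, by 1.43 and 1.28. Lrdd, the gene of the death-domain protein PIDD, rose by 0.97 and 1.16. Of 12 mitotic genes known to be repressed when p53 is active, 2 rose and 8 fell in WT, and 5 fell in KO with no rise. The mitotic kinase genes Aurka and Plk1 fell by 1.31 and 1.24 in WT and by 1.23 and 1.60 in KO. In none of these 4 lists did the response of any gene differ between genotypes past the threshold. Among all genes, a higher response in KO was called for 1.10% and a lower one for 0.784%. At those shares, lists of this size could well hold no call.

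In tumours no member passed the threshold between KO and WT when the 10 tumours were fitted on their own, which does not show that the genotypes were alike. After ENU, 0 of 32 members and 0% of all 13025 genes were called in the limma fit. The smallest p-values among members were those of Aen (-0.50 ± 0.16, adjusted p 0.35), Plk2 (2.15 ± 0.74, 0.352) and Sesn2 (-0.65 ± 0.22, 0.352). Plk2 was at 6.64, 8.61 and 8.59 in WT ENU tumours and at 11.49, 8.71 and 10.09 in those labelled KO, so the groups did not overlap but the nearest arrays differed by little. Without ENU tumour 1 labelled KO, the array high in macrophage and dendritic genes, the Plk2 difference was 1.45 ± 0.66 (adjusted p 0.738), and the part of those cells was not tested. Cdkn1a was at 8.59, 11.86 and 11.19 in WT and at 10.32, 8.42 and 9.29 in tumours labelled KO (-1.21 ± 0.79, adjusted p 0.438), and the groups overlapped. Mdm2 (-0.18), Ccng1 (-0.09), Trp53inp1 (0.23) and Fas (-0.27) were not called. With KO Notch tumour 2 left out of the fit 0 members were called as well (lowest adjusted p 0.151, for Aen), and with all 20 arrays in 1 fit 2 were.

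In Notch tumours 0 of 32 members were called in the limma fit, where 0% of all genes rose and 0.0154% fell with KO. Cdkn1a was at 7.82 and 7.87 in WT and at 9.65 and 9.76 in KO Notch tumours, with no overlap. The difference was 1.86 ± 0.97 (adjusted p 0.807), with an SE taken from all 10 tumours. Without KO Notch tumour 2 it was 1.80 (adjusted p 0.996). Xpc (-0.84, adjusted p 0.61) and Ccng2 (-0.70, 0.806) had the smallest p-values. Fas differed by 0.33 with, and by -0.90 without, KO Notch tumour 2. Mdm2 (0.04), Ccng1 (-0.08) and Trp53inp1 (-0.44) were not called. With all 20 arrays in 1 fit 1 member was called.

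For Cdkn1a the value labelled KO minus WT was -1.21 in ENU tumours, where no loss of Gfi1 RNA was seen, and 1.86 in Notch tumours. The difference of 3.07 ± 1.25 did not pass (adjusted p 0.681, and 0.374 without KO Notch tumour 2). For this contrast 0 members and 0% of all genes were called by limma. Between WT Notch and WT ENU tumours 0 members were called as well, where 0.0154% of all genes were higher and 0.00768% lower. The members with the smallest p-values there were Cdkn1a (-2.71 ± 0.88, adjusted p 0.556) and Sesn2 (-0.66 ± 0.25, 0.603). With KO Notch tumour 2 left out of the fit their adjusted p was 0.339 and 0.381, and the count stayed at 0. Mdm2 (-0.06), Ccng1 (0.12), Trp53inp1 (0.26) and Fas (-0.75) did not pass. Leaving out any 1 tumour of the groups compared left each of these 4 tumour counts at 0.

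The tumours varied more than the thymocytes. The median SD of the members within groups was 0.33 in tumours, against 0.25 over all genes tested, and 0.12 in thymocytes, as over all genes. Cdkn1a (SD 1.14), Plk2 (1.06) and Fas (1.00) were at the 98.1, 97.5 and 97 percentile of all genes in this spread, and Steap3 (0.68) and Tnfrsf10b (0.64) at the 91.5 and 90.2 percentile. Without KO Notch tumour 2, whose group had the lowest correlation between arrays (0.87), the medians in tumours were 0.30 for members and 0.21 for all genes, and the SD was 1.25 for Cdkn1a, 1.16 for Plk2 and 0.77 for Fas.

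**Figure D3:**
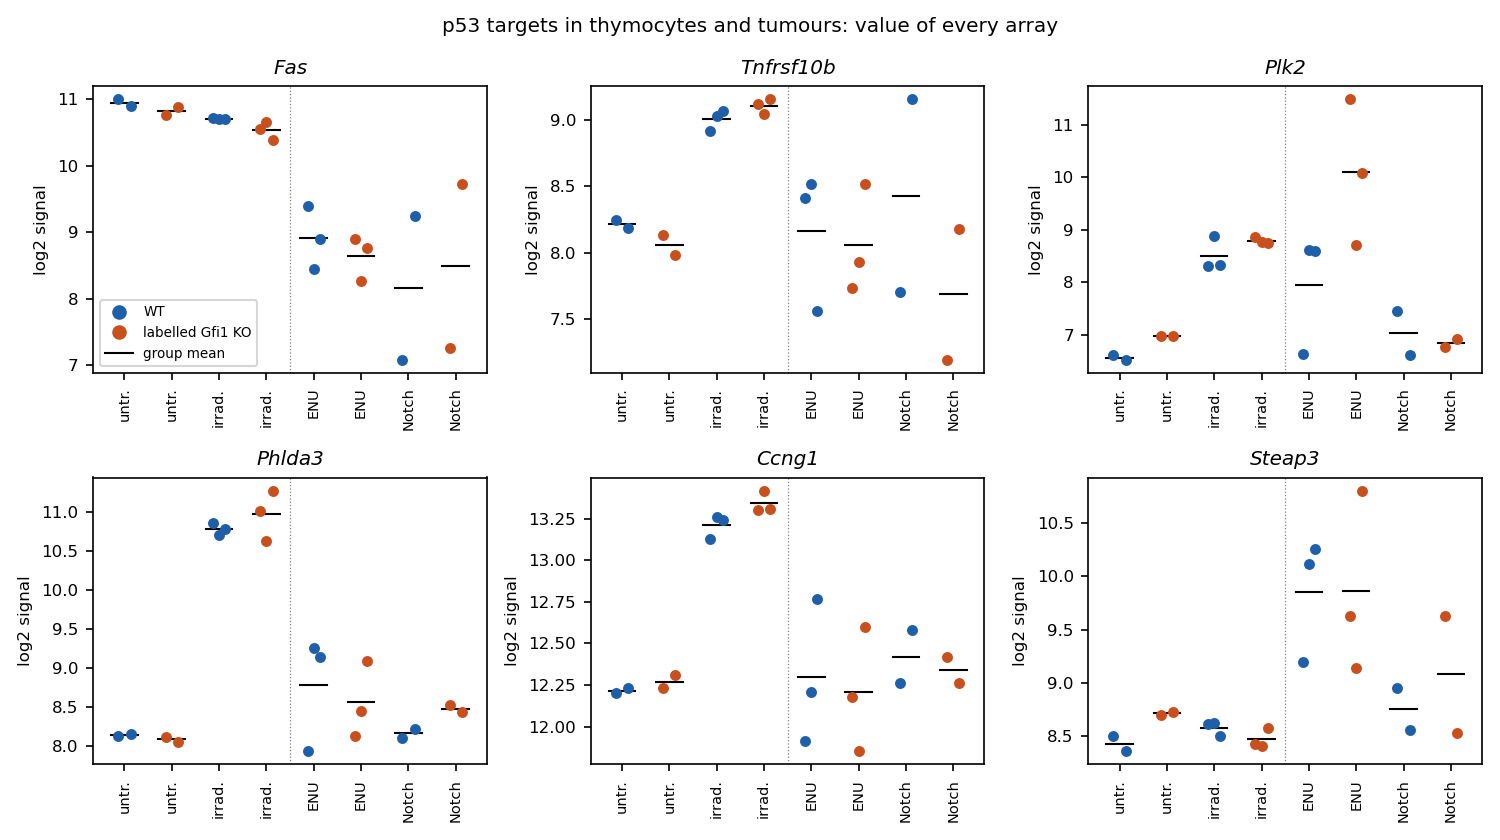
Log2 signal of 6 members on every array in the 8 groups, with a bar at each group mean. Fas lies below the thymocyte arrays on all 10 tumour arrays, Plk2 reaches 11.49 on 1 tumour labelled KO after ENU, and Phlda3 and Ccng1 lie below the irradiated thymocytes on every tumour array.

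Set against WT untreated thymocytes, WT ENU tumours had 6 members higher and 7 lower, where 9.87% and 10.2% of all 13520 genes were called. The member median was -0.08. Sesn2, at 9.03, 9.49 and 9.17, was higher by 1.38 ± 0.21 (adjusted p 5.58e-04). Steap3, at 9.20, 10.11 and 10.25 against 8.50 and 8.36, was higher by 1.43 ± 0.40 (0.0226). Cdkn1a was higher by 2.34 ± 0.67 (0.0238), although WT ENU tumour 1, at 8.59, lay near the untreated arrays at 8.12 and 8.30. Abhd4 (1.22), Ddit4 (1.07) and Aen (0.40) were the other members called higher. The Aen call was lost under 7 of 9 other ways of processing or fitting (adjusted p up to 0.118) and without WT ENU tumour 3, WT untreated array 1 or WT untreated array 2. The Ddit4 call was lost without any of the same 3 arrays or WT ENU tumour 1, and when arrays were centred on the median gene or not filtered (adjusted p up to 0.186).

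The members lower in WT ENU tumours included both cyclin G2 and Fas. Fas was at 9.39, 8.44 and 8.89, lower by 2.04 (-2.04 ± 0.59, adjusted p 0.0244). Ccng2 was at 9.88, 10.01 and 9.10, against 10.90 and 10.75, lower by 1.16 (-1.16 ± 0.22, 0.00234). Btg2 (-1.12), Sesn1 (-0.96), Trp53inp1 (-0.68), Xpc (-0.65) and Rchy1 (-0.41) were also lower. The Rchy1 call was lost without any 1 of the arrays compared. The calls of Fas, Btg2 and Steap3 were lost without WT ENU tumour 2 or 3 or WT untreated array 1 or 2. Sesn2 and Ccng2 kept their calls without any 1 array. Mdm2 (-0.24) and Ccng1 (0.08) did not pass.

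The WT ENU count of 13 fell to 8 without WT ENU tumour 2, to 5 without WT ENU tumour 3 and to 2 without WT untreated array 1 or 2. Cdkn1a lost its call in all 4 of these fits, with differences of 1.68 to 2.43, and was 3.32 without WT ENU tumour 1. Leaving KO Notch tumour 2 out of the fit left the count at 13. The mean of 10 double-positive markers was 12.30 in WT untreated thymocytes and 11.10 in WT ENU tumours, and that of 10 granulocyte markers was 9.31 and 7.06. Their part in these values was not tested.

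WT Notch tumours had 1 member higher and 2 lower than WT untreated thymocytes, against 2.14% and 5.54% of all genes. Abhd4, at 9.64 and 9.71, was higher by 1.68 ± 0.32 (adjusted p 0.00766). Fas, at 7.08 and 9.24, was lower by 2.78 (-2.78 ± 0.64, 0.0185), and the 2 tumours themselves differed by over 2 log2 units. Ccng2 was lower by 0.97 (-0.97 ± 0.24, 0.0249). Cdkn1a (-0.37), Mdm2 (-0.30), Ccng1 (0.21) and Trp53inp1 (-0.42) did not pass. The count was 0 without WT Notch tumour 1, WT untreated array 1 or WT untreated array 2, and 5 with KO Notch tumour 2 left out of the fit or with only the 2 groups compared in it. In the last of these Fas itself was not called (adjusted p 0.061), and its difference ran from -1.70 to -3.86 with 1 array left out. The 2 tumour comparisons share their untreated control arrays. Double-positive markers averaged 10.66 in these tumours, and their part was not tested.

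**Figure D4:**
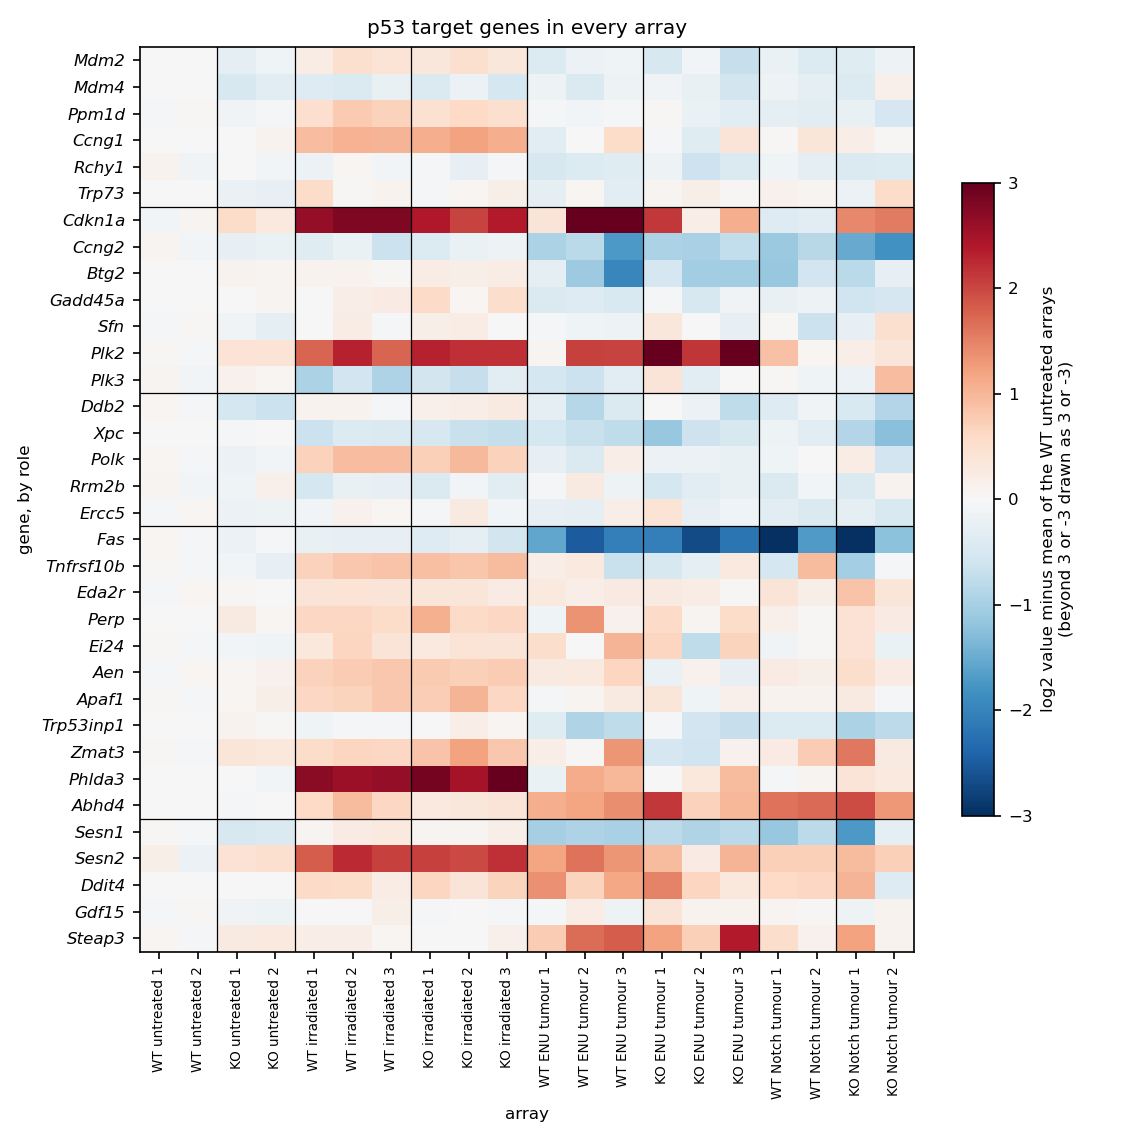
Log2 signal of the 34 measured members, ordered by role, on the 20 arrays, each minus the gene's mean in WT untreated thymocytes, with the colour scale limited to -3 and 3. Columns of irradiated thymocytes show the rises of Cdkn1a, Plk2, Phlda3 and Sesn2, and the tumour columns show low Fas and values of Cdkn1a and Plk2 that differ from tumour to tumour.

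The 4 members with the largest rises after irradiation were also set side by side in the tumours. In WT ENU tumours 2 and 3 all 4 lay above both WT untreated arrays, with Cdkn1a at 11.86 and 11.19, Plk2 at 8.61 and 8.59, Sesn2 at 9.49 and 9.17 and Phlda3 at 9.26 and 9.14. The Cdkn1a and Plk2 values there reached those of irradiated WT thymocytes, while the Phlda3 and Sesn2 values lay below them. In WT ENU tumour 1 Cdkn1a was at 8.59, Plk2 at 6.64, Sesn2 at 9.03 and Phlda3 at 7.93, so Phlda3 lay below both WT untreated arrays and the other 3 genes above them. Over all 10 tumours Phlda3 ran from 7.93 to 9.26, against 10.63 to 11.27 in irradiated thymocytes, and Ccng1 from 11.85 to 12.77, against 13.13 to 13.42. For Phlda3, and for Ccng1, which is not 1 of these 4 members, every tumour array lay below every irradiated array. The genes were picked for their rise after irradiation in these same data, which favours tumour values below the irradiated ones. The share of all genes that separate in this way was not counted, so nothing particular to the members can be read from it. In ENU tumour 1 labelled KO, which had the highest Plk2 value (11.49) and the macrophage and dendritic signal given above, Cdkn1a was at 10.32 and Phlda3 at 8.13.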

How the data were processed

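RNA from 20 samples was hybridised to expression arrays. Per the labels, it was extracted with a Qiagen kit, amplified with a NuGEN kit and labelled with biotin. The authors deposited log2 values for 182058 probe sets, from 3.37 to 15.01. The log scale was read from the values. How probe signals were corrected, normalized and summarised, and the log base, is not stated in the sources at hand. The number of arrays limits the precision. Array medians lay between 9.08 and 9.27.

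Probe sets naming 1 gene (167016) were kept. Each was centred over the 20 arrays, and the median over the probe sets, with their mean added back, was the value of a gene. Genes above the 40th percentile in at least 2 arrays of a fit were tested with limma 3.58.1 (lmFit and eBayes, R 4.3.3) in 11 comparisons, adjusted by Benjamini-Hochberg at 0.05. Thymocytes and tumours were fitted apart, and comparisons between them on all 20 arrays. The method was tested on simulated data.

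The members, gene lists and tests were chosen with earlier results of these data known. Values per array are given for members called in a KO comparison or in the difference in response, and for up to 12 with the smallest p after irradiation. Each comparison names Fas, Trp53inp1, Ccng1, Mdm2 and Cdkn1a, and up to 4 genes of each other list. Alternatives covered normalization, centring, the filter, the probe set summary, repeated probe sets, the arrays in the fit, eBayes settings, a replicate block and single arrays left out. Protein comparison of relatives was not done here.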

Additional observations from a re-analysis of the deposited data

Results flagged for a closer look

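The response to irradiation differed between genotypes, by a limma test of the difference itself, for 2 members. For Cdkn1a the KO response minus the WT response was -0.91 (adjusted p 0.0125), and for Ddb2 it was 0.73 (adjusted p 0.00899). Over all genes 1.10% had a higher and 0.784% a lower response in KO. Both calls were lost with all 20 arrays in 1 fit, and without single untreated arrays as given above. Untreated and irradiated KO thymocytes showed different Gfi1 patterns, and a genotype difference in response cannot be told apart from that difference between samples. Groups held 2 or 3 arrays, too few to look for an array far from the rest of its group.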

How the results depend on the processing

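For the 68 calls of a member in a comparison, 906 values were recomputed under the alternatives that apply, of which 746 kept their direction and stayed past the threshold, 160 kept their direction and no longer passed, and 0 reversed. Counts of members called moved most when thymocytes and tumours shared 1 fit: 8 in place of 20 after irradiation in WT, 9 in place of 23 in KO, 0 in place of 2 for the difference in response, 0 in place of 4 between genotypes untreated and 0 in place of 3 irradiated, but 2 in place of 0 in ENU and 1 in place of 0 in Notch tumours. With only the 2 groups compared, WT Notch tumours against untreated thymocytes gave 5 in place of 3, and leaving KO Notch tumour 2 out of the fit, an alternative chosen after seeing the data, also gave 5. Between untreated genotypes the count was 2 with no filter. The share of all genes called under each alternative is not given beside these counts, and the cause of the shifts was not tested. Between arrays of the same replicate number the correlations of deviations from the group means ran from -0.46 to 0.20. In groups of 2 arrays the deviations mirror each other, so these few values cannot show whether the numbers pair the samples. With the replicate number as a block, 10 of the 68 calls no longer passed. With the replicate number as a block the count was 2 in place of 4 between untreated genotypes and within 1.5 times of the count without it in the other comparisons. With each array of the groups compared left out in turn, the counts ran from 16 to 20 after irradiation in WT, 19 to 23 in KO, 0 to 2 for the difference in response, 1 to 2 between untreated and 2 to 5 between irradiated genotypes, 2 to 13 for WT ENU and 0 to 3 for WT Notch tumours against untreated thymocytes. A group left with 1 array was assumed to vary like the other groups.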
